A study of Caenorhabditis elegans with 2 samples.

Results

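The cytoplasmic ribosomal protein genes of Caenorhabditis elegans were taken as the protein-coding genes whose symbols start with rpl-, rps- or rla- in the WBcel235 gene models. There were 81 of them among 19973 nuclear protein-coding genes. Of the 81, 50 encode proteins of the large subunit (47 rpl- genes and the 3 rla- genes of the ribosomal stalk), and 31 rps- genes encode proteins of the small subunit. They lie mostly on autosomes, with 25 on chromosome I and only 2, rpl-11.2 and rpl-25.1, on X.

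The data are maps of UNC-62 on DNA, from ChIP-seq: chromatin is sheared, fragments that carry the protein are captured with an antibody, and their DNA is sequenced. There were 2 biological replicates in 1 group: whole animals of strain OP600, males and females pooled. The strain carries the allele unc119(ed3) and the transgene wgIs600, in which unc-62 is joined to TY1, EGFP and FLAG tags at its C-terminus and which also holds unc119. The antibody field names unc-62. Both replicates share this genotype, and UNC-62 was read in all tissues at once. The labels do not settle whether the tagged copy alone was captured or also untagged UNC-62. The stage is labelled dauer, an arrested larva, in 2 fields and D4 worms in another, and the files do not settle which holds. No untagged strain, second stage or expression measurement was analysed here, so the comparisons are among genes, not among conditions.

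UNC-62 is a TALE homeodomain protein of the Meis class, a cofactor of Hox proteins that acts in embryonic patterning and, in adult worms, in the intestine. Ribosomal protein genes encode the protein part of the cytoplasmic ribosome, are among the most highly expressed genes of growing cells, and are transcribed in a balanced way so that the subunits can be assembled. In C. elegans many of their mRNAs receive a spliced leader, so the annotated start often marks a splice acceptor and the true start of transcription may lie farther upstream. For each gene a promoter window ran from 1000 bp upstream to 200 bp downstream of every annotated transcript start. A gene was counted when the summit, the highest point of a region, lay in its window.

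The authors' ce11 files hold 4 lists of regions. The pooled list was called on both replicates together and has 2155 regions. The reproducible list has the 95 of them that the authors kept by their irreproducible discovery rate (IDR) step. Each replicate list has 30000 regions and includes background by design. Rank 1 is the region with the highest signal in a list, where signal is the authors' value per region on a scale that is not stated. Ranks include mitochondrial regions: 19 in the pooled list, 19 in the reproducible list, 24 in replicate 1 and 2 in replicate 2. Sequencing depth is unknown from the files. The lowest signal listed was 15.5 in the pooled list, 3.86 in replicate 1 and 4.10 in replicate 2, so weaker regions, if any, are not listed. The lowest q value in the pooled list was 0.151, so no region there, at a ribosomal protein gene or elsewhere, passed a q of 0.05. In the replicate lists, counted over the whole genome, 201 regions of replicate 1 and 136 of replicate 2 had a q below 0.05.

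The 6 ribosomal protein genes with the strongest pooled regions were, in order of the genome and not of signal, rpl-3, rps-12 and rpl-35 on chromosome III and rpl-15, rps-28 and rpl-20 on chromosome IV. The summit sequences of the 5 after rpl-3 are shown because similar short words recur in them and because none of these windows overlaps an annotated exon. Each is 201 bases of the WBcel235 assembly (RefSeq sequence, ce11 coordinates) centred on the pooled summit and read 5′ to 3′ on the gene's strand. Capitals mark, on either strand, the word GGCCTAA, the word GCGCTC and the word GTGTAT, all 3 picked by eye after summit sequences of these genes were seen.
rpl-20 (chrIV:4749959-4750159, minus strand): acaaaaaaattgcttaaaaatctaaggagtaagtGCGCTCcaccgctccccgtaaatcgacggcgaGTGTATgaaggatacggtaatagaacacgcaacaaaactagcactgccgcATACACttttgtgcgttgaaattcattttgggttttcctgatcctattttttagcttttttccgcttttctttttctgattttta
rpl-15 (chrIV:654797-654997, minus strand): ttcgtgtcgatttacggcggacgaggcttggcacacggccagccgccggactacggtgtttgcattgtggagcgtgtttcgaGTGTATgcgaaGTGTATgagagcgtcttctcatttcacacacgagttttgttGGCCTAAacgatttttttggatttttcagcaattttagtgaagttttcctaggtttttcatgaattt
rpl-35 (chrIII:7854570-7854770, plus strand): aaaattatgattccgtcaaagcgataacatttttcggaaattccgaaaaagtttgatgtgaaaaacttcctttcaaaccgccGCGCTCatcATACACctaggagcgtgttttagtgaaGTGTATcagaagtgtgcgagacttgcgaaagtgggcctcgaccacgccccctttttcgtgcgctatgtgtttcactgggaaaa
rps-12 (chrIII:5679013-5679213, plus strand): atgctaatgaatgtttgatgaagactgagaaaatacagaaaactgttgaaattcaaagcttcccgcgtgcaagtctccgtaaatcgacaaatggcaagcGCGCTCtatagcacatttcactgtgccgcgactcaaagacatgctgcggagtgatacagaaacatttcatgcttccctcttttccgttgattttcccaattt
rps-28 (chrIV:1659186-1659386, plus strand): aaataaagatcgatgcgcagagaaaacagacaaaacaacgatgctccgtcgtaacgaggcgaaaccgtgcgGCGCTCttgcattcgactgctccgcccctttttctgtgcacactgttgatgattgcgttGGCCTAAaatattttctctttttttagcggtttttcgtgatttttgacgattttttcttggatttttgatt

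The first question was how many ribosomal protein genes carry a UNC-62 region at their start. In the pooled list 15 of 81 did, or 18.5% (95% exact interval 10.8 to 28.7), against 4.08% of the other 19892 nuclear protein-coding genes (812 genes). The difference was 14.4 percentage points (95% interval 6.66 to 24.6, from the exact intervals of the 2 shares). It was 3.14 points with regions shared by another protein-coding gene left out, 7.65 points when a summit counted only for the nearest start, 7.55 points in the stronger 50% of the pooled list and 7.39 points without replicate 1. In the reproducible list 4 of 81 did, or 4.94% (1.36 to 12.2), against 0.201% of the other genes (40 genes). These intervals cover counting error only, treat genes as independent, and are not a test. In each replicate list alone most ribosomal protein genes had a summit: 51 of 81, or 63.0%, in replicate 1 against 39.7% of the others, and 48 of 81, or 59.3%, in replicate 2 against 38.8%.

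A strong region in both replicates was rarer. Within the top 1000 regions, 12 ribosomal protein genes had a summit in replicate 1, or 14.8% against 2.17% of the others, and 6 had one in replicate 2, or 7.41% against 1.9%. Only rps-12, rpl-35, rpl-3, rpl-15 and rpl-20 had one in the top 1000 of both replicates, 6.17% of the 81 against 0.392% of the others. The same number met the rule in the top 500 of both. Summits in both full replicate lists were found at 32 of 81 genes, or 39.5% against 19.7%, and neither list had one at 14 genes, or 17.3% against 41.2% of the others. These 14 were rla-1, rpl-4, rpl-5, rpl-7A, rpl-16, rpl-31, rpl-33, rpl-34, rps-2, rps-3, rps-5, rps-9, rps-13 and rps-25. At these genes no region was detectable above the lowest listed signal of either replicate.

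**Figure D1:**
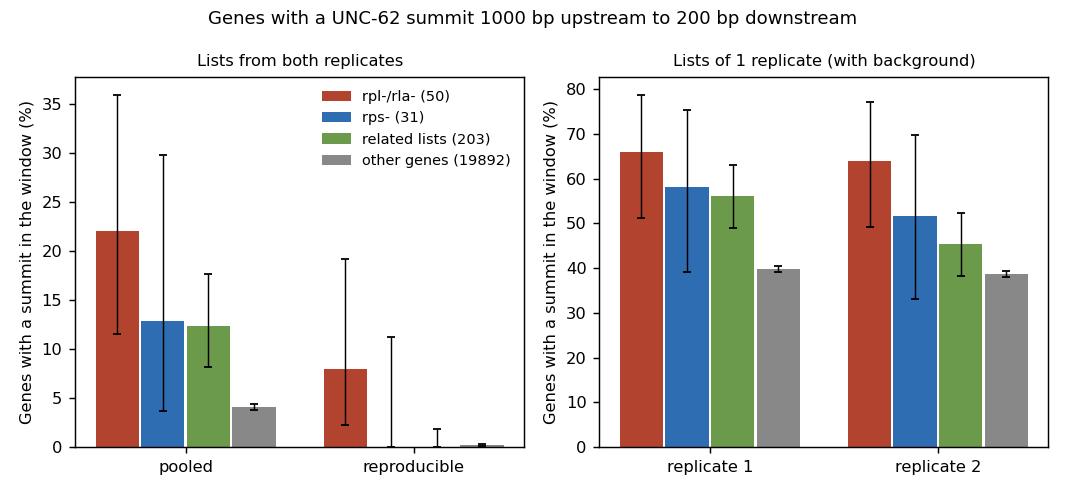
Share of genes with a summit in the promoter window (vertical axis, percent, with 95% exact binomial intervals) in the pooled and reproducible lists (left) and the lists of each replicate (right), for large subunit genes, small subunit genes, the 203 genes of related lists and all other protein-coding genes, which include the related lists. In the pooled list the bars stand at 22%, 12.9%, 12.3% and 4.08%.

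The gene with the strongest region was rpl-3, which encodes a core large-subunit protein whose extension reaches the peptidyl transferase centre. Its region had a summit 247 bp upstream of the start, with a signal of 80.01 in the pooled list, 56.1 in replicate 1 and 23.2 in replicate 2. It ranked 19 in the pooled list, 20 in replicate 1 and 21 in replicate 2. The ranks were close in the replicates, but they include unequal numbers of mitochondrial regions, 24 in replicate 1 and 2 in replicate 2. No other protein-coding window held this summit.

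For rpl-20, which encodes a protein of the large subunit, the region (IV 4749887 to 4750230) had a summit 281 bp upstream, with a signal of 44.6 in the pooled list, 20.7 in replicate 1 and 17.1 in replicate 2. For rpl-15, another large-subunit protein, the summit lay 321 bp upstream (IV 654725 to 655068), with signals of 40.6, 19.4 and 19.6 in the same order. In replicate 1 they ranked 60 and 75, and in replicate 2 they ranked 83 and 48, so the replicates ordered the pair differently.

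The fourth reproducible region lay at rpl-35, whose protein sits near the exit of the nascent chain tunnel. Its summit was 464 bp upstream (III 7854498 to 7854841), with a signal of 36.5 in the pooled list, 24.2 in replicate 1 and 14.2 in replicate 2. It ranked 40 in replicate 1 and 197 in replicate 2. All 4 reproducible members were large-subunit genes: 4 of 50, or 8%, against 0 of 31 small-subunit genes, a count that allows a share of up to 9.68%.

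The small-subunit gene with the strongest region was rps-12. Its summit, 185 bp upstream (III 5678941 to 5679284), had a signal of 31.02 in the pooled list, 17.6 in replicate 1 and 12.4 in replicate 2. It ranked 100 in the pooled list, just below the 95 regions of the reproducible list, whose lowest signal was 31.2. Its signal in the pooled list was thus close to that of the weakest reproducible region.

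At rps-28, another small-subunit gene, the replicates were far apart. The summit 405 bp upstream (IV 1659114 to 1659457) had a signal of 28.5 in the pooled list and 20.1 in replicate 1, where it ranked 67. The nearest replicate 2 summit had a signal of 4.69 and ranked 23408, and the stronger of the 2 in its window had a signal of 7.28 and ranked 6721. A second small-subunit gene, rps-4, had a pooled signal of 20.8 and a replicate 1 signal of 13.9 at 229 bp upstream, and no replicate 2 summit within 200 bp. These genes rest on replicate 1.

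The remaining 8 genes had pooled signals from 15.6 to 22.0. They were rpl-25.2 (22.0), rpl-22 (17.03), rpl-43 (16.8), rpl-12 (16.6), rpl-13 (16.3), rpl-11.1 (16.2), rps-20 (16.2) and rpl-27 (15.6), and all but rps-20 encode large-subunit proteins. Of these, rpl-12 encodes a protein at the base of the stalk, and rpl-11.1 a protein that binds 5S rRNA and has an X-linked paralog, rpl-11.2. The pooled list begins at 15.5, so most of these values sit close to its lower end, and their q values ran from 0.351 to 0.954. At rpl-27 and rpl-11.1 the rank was better in replicate 2 (4057 against 13025, and 6421 against 27388), and at the other 6 it was better in replicate 1.

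**Figure D2:**
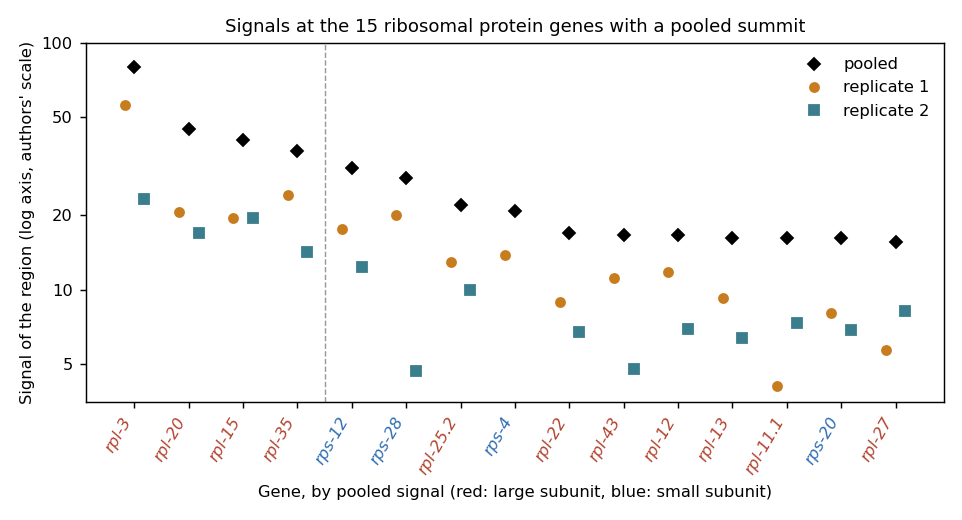
Signal of each region on a log axis (the authors' scale) at the 15 ribosomal protein genes with a pooled summit, for the pooled list and for the summit within 200 bp in each replicate list; the dashed line separates the 4 genes of the reproducible list. The pooled signals run from 80.01 at rpl-3 to 15.6 at rpl-27, and rps-4 has no replicate 2 point.

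Across the 15 genes, all had a replicate 1 summit within 200 bp of the pooled one and 14 had a replicate 2 summit, so that 14 of 15 (93.3%) were matched in both, against 76.4% of the 2136 nuclear pooled regions. Replicate 1 gave the better rank at 11 of these 14 genes, with a median rank of 472 against 5239 in replicate 2. Over the 1631 nuclear pooled regions matched in both replicates the ranks leaned to neither, with a better rank in replicate 1 at 48.4% and medians of 3707 and 3449. Without replicate 1, the top 2155 regions of replicate 2 alone held 9 ribosomal protein genes, 11.1% against 3.73% of the other genes. Without replicate 2, those of replicate 1 alone held 14, or 17.3% against 4.22%.

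Among the 32 genes with a summit in both replicate lists, the best signals had a Spearman rho of 0.45 across genes, against 0.14 across 3918 other genes. This is a description only, since the genes share the same 2 libraries. At 21 of the 32 genes (65.6%) a summit of each replicate lay within 200 bp of the other, against 53.9% of the other genes. Outside the rule for naming genes, and singled out after their values were seen, rpl-6 ranked 487 in replicate 2 with no replicate 1 summit in its window, and the X-linked rpl-11.2 ranked 657 in replicate 1 with none in replicate 2.

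**Figure D3:**
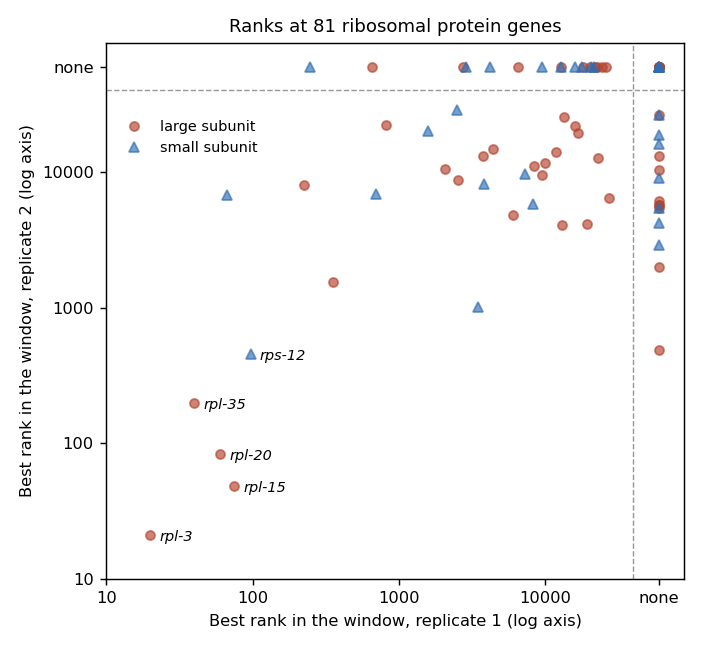
Best rank in the promoter window in replicate 1 (horizontal) and replicate 2 (vertical), both on log axes, for the 81 genes; "none" marks genes with no summit in that list. Named are rps-12, rpl-35, rpl-3, rpl-15 and rpl-20, the genes within the first 500 in both replicates.

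Large and small subunit genes were then set side by side. In the pooled list 11 of 50 large-subunit genes had a summit, or 22% (95% exact interval 11.5 to 36.0), and 4 of 31 small-subunit genes, or 12.9% (3.63 to 29.8). The difference of 9.10 percentage points had a 95% interval from -10.8 to 25.9, so at these numbers no difference between the subunits was detectable, and the interval does not show that they are alike. In replicate 1 the shares were 66% and 58.1%, and in replicate 2 they were 64% and 51.6%. Among the stronger 50% of pooled regions they were 10% and 9.68%. None of the 3 stalk genes, rla-0, rla-1 and rla-2, had a pooled summit.

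Over all genes of a subunit, counting a gene without a summit as 0, the median best signal was 4.94 for the large and 5.03 for the small subunit in replicate 1, and 5.86 and 4.20 in replicate 2. The replicates therefore ordered the subunits differently, but the 2 medians of replicate 1 were close. The 4.20 also lies near the lowest signal listed in replicate 2, 4.10. For the other protein-coding genes the median was 0 in both replicates, as fewer than 50% had a summit, and the upper quartile was 5.20 in replicate 1 and 5.32 in replicate 2. The upper quartile of all 81 genes was 8.09 in replicate 1 and 7.37 in replicate 2.

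Most summits lay upstream, over a wide range of distances. The pooled summits lay from 704 bp upstream (rpl-43) to 13 bp downstream (rpl-12), with a median of 282 bp upstream, and 11 of 15 (73.3%) lay from 500 to 150 bp upstream. For the 812 other genes the median was alike at 285 bp upstream, but 33.5% lay in that span, which makes up 29.2% of a window of 1 start. The span was not among the planned comparisons, so these shares are a description only. From 500 to 101 bp upstream of the most upstream start, the density of replicate 1 summits was 0.926 per kb at ribosomal protein genes and 0.362 per kb at others, and that of replicate 2 summits was 0.926 and 0.335. From 1000 to 501 bp upstream ribosomal protein genes were also higher, with 0.617 against 0.313 in replicate 1 and 0.568 against 0.309 in replicate 2. From 100 bp upstream to 200 bp downstream the order turned, with 0.205 against 0.357 in replicate 1 and 0.287 against 0.354 in replicate 2. From 2000 to 1001 bp upstream the densities were 0.309 and 0.302 in replicate 1, and 0.395 and 0.307 in replicate 2.

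**Figure D4:**
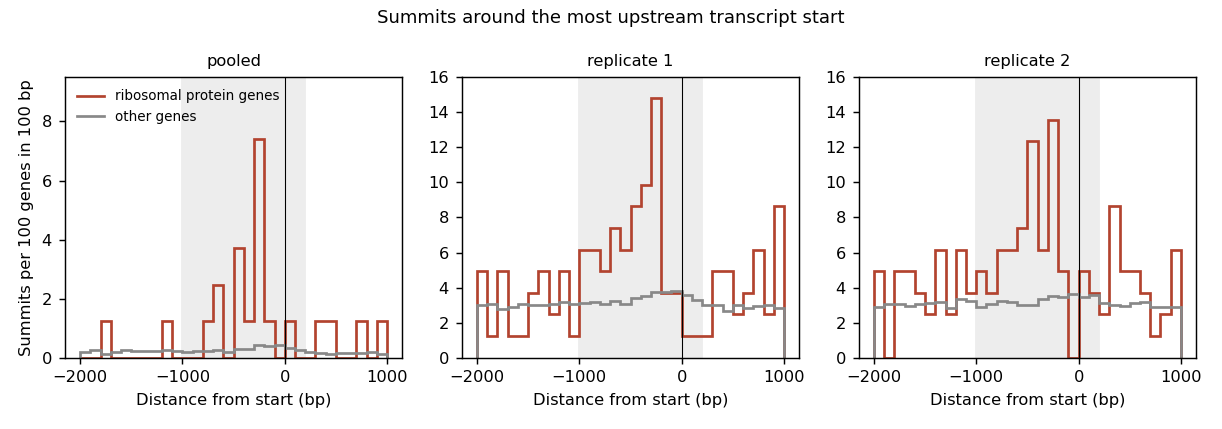
Summits per 100 genes in bins of 100 bp (vertical) by distance from the most upstream annotated start (horizontal, negative is upstream), for the 81 ribosomal protein genes and the 19892 other genes in 3 lists, with the promoter window shaded. In the bin from 300 to 201 bp upstream the ribosomal protein genes had 7.41, 14.8 and 13.6 summits per 100 genes in the pooled, replicate 1 and replicate 2 lists, against 0.432, 3.77 and 3.54 at other genes.

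Inside the upstream window edge, the pooled summits nearest to it were those of rpl-43 at 704 bp (signal 16.8) and rpl-11.1 at 619 bp upstream (signal 16.2). The nearest outside were a second summit of rps-12 at 1178 bp upstream (signal 16.96) and one of rpl-16 at 1780 bp upstream (signal 15.8). None of these lay close to the edge, which is at 1000 bp. Past the downstream edge lay a further summit near rps-12, 342 bp inside the start (signal 18.4), and one 443 bp inside that of rps-15 (signal 21.2).

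Many of these summits lie between close neighbours. At 10 of the 15 genes (66.7%) the summit was also in the window of another protein-coding gene, against 26.0% of the 812 other genes with a pooled summit. At 7 of the 10 it lay upstream of both genes, which run in opposite directions. Such neighbours were ify-1, which encodes a securin-like protein and whose start was 155 bp from the rpl-22 summit, ska-3, a kinetochore component 108 bp from that of rps-12, ekl-4, 147 bp from that of rps-20, and Y17G9B.5, 181 bp from that of rpl-20. The summit at rpl-12 lay 406 bp upstream of lin-54, which encodes a subunit of the DREAM repressor complex. At 6 of the 15 the summit was nearer to another gene's start than to that of the ribosomal protein gene, so the lists alone cannot assign it to 1 of the 2.

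Ribosomal protein genes as a whole were more crowded: 75.3% had window bases shared with another protein-coding gene, against 36.1% of the others, and shared bases made up 56.3% of their window against 18.9%. Within bases that belong to 1 gene alone, the pooled list had 0.112 summits per kb at ribosomal protein genes (5 summits) and 0.0270 at others. Within shared bases it had 0.174 per kb (10 summits) and 0.0392. Replicate 1 had 0.651 against 0.331 per kb in unshared bases, and replicate 2 had 0.561 against 0.321. With shared regions left out, 5 of 81 ribosomal protein genes kept a pooled summit, 6.17% against 3.03% of the others, and in the reproducible list rpl-3 and rpl-35 did. The ribosomal protein genes had fewer annotated starts (1.31 per gene against 1.49) and shorter windows (1259 bp per gene against 1460 bp).

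Small RNA genes also lay near: at 4 of the 15 genes (26.7%) the summit was also in the same window of a small RNA gene, against 49 of the 812 other genes with a pooled summit (6.03%). These were the snoRNA genes K11H12.12 and K11H12.13 at rpl-15, F54E7.10 and F54E7.11 at rps-12 and Y43B11AR.7 at rps-4, and the microRNA gene cel-mir-354 at rps-20. snoRNAs guide chemical modification of ribosomal RNA, and in animals many lie in or beside ribosomal protein genes. In the replicate lists 3 regions served 2 ribosomal protein genes at once: rpl-36 and rps-14 in replicate 1, and rpl-39 with rps-30 and rpl-24.1 with rps-10 in replicate 2, each upstream of both genes. A gene with such a shared region is not a separate observation.

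The sequences at the summits were searched on both strands for 4 words chosen with earlier results of these data known and for the 3 words in capitals above. GAGAGA, a GA repeat unit, was within 100 bp of 2 of the 15 summits (rps-4 and rpl-13), or 13.3%, against 22.3% of the other 2121 nuclear pooled summits, and was in none of the 5 printed windows. TGACAG, the core bound by Meis proteins, was at 1 (rpl-11.1), or 6.67% against 8.68%. TGATTGAC, part of a joint Pbx and Meis site, was at 1 (rpl-25.2), or 6.67% against 1.08%. That summit had no TGACAG within 100 bp, so the match lacks the Meis core. GCGCGA was at 0 of 15, a count that allows a share of up to 20%, against 4.29%.

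GGCCTAA was within 100 bp of 5 of the 15 summits, among them rpl-15, rps-28, rps-4 and rpl-43, or 33.3%, against 0.943% of the other pooled summits. In the printed windows of rpl-15 and rps-28 it lies on the gene's strand and begins 34 and 30 bp past the summit. GCGCTC was at 7 of 15, or 46.7% against 4.998%, namely at rpl-20, rpl-35, rps-12, rps-28, rpl-22, rpl-43 and rpl-12. GTGTAT was at 3, or 20% against 10.5%. As these words were picked from the sequences, their shares at the summits are a description only.

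In the 500 bp before the most upstream start, GGCCTAA was in 15 of the 66 ribosomal protein promoters without a pooled summit, or 22.7%, and in 8 of the 15 with one, or 53.3%. In all it was in 23 of 81 (28.4%), against 2.83% of the other 19892 promoters and 2.46% of the 812 of them with a pooled summit. Of the 23, 16 belong to large and 7 to small subunit genes, 32% and 22.6% of each. The match nearest the start lay from 375 to 24 bp upstream, with a median of 222 bp, and was on the gene's strand in 16 of 23.

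The word came from summit sequences of ribosomal protein genes, so a higher share with a summit among its carriers was partly built in, and the following values are a description only. Genes with GGCCTAA had a pooled summit in 8 of 23 cases (34.8%), and those without it in 7 of 58 (12.1%). In replicate 1 the shares were 78.3% and 56.9%, and in replicate 2 they were 60.9% and 58.6%. GCGCTC did not set ribosomal protein promoters without a pooled summit apart in the same way, at 7.58% against 8.16% of other promoters, nor did GTGTAT, at 9.09% against 17.5%. The median GC content was 33.8% in ribosomal protein promoters and in the other promoters, and 41.8% around the 15 summits against 37.8% around the other pooled summits.

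In the pooled list, genes of related machinery as a whole had a share between those of the ribosomal protein genes and the rest. Over 8 lists of 203 genes, 25 had a pooled summit, or 12.3% (8.13 to 17.6). None had a reproducible one, a count that allows a share of up to 1.48%, against 0.201% of all other genes. None had one in the top 1000 of both replicates either, against 0.392%. The shares were 6 of 70 mitochondrial ribosomal protein genes (8.57%), 4 of 33 translation initiation factors (12.1%), 2 of 6 elongation factors (33.3%), 3 of 31 aminoacyl-tRNA synthetases (9.68%), 5 of 33 proteasome subunits (15.2%), 1 of 8 chaperonin subunits (12.5%) and 3 of 19 RNA polymerase subunits (15.8%). Of the 3 ribosome-associated genes that go by other names, ubl-1, ubq-2 and rack-1, ubq-2, which encodes a fusion of ubiquitin and a large-subunit protein, had one (signal 18.5).

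The strongest of these were at rpn-3, a lid subunit of the proteasome (pooled signal 27.0, 16.2 in replicate 1 and 8.08 in replicate 2), mrpl-55, a mitochondrial large-subunit protein (26.9, 17.3 and 7.39), and eef-1A.1, elongation factor 1 alpha (26.4, 14.0 and 6.996). All 3 were below the pooled signals of the 6 strongest ribosomal protein genes. Other leading genes were rpoa-1 (24.8), rpn-12 (23.9), eif-3.C (23.3), eif-2Bgamma (21.1), mrps-6 (21.01), cct-8 (20.9), rpb-11 (20.4), ears-2 (19.5), eef-1G (17.4) and mars-1 (17.3). Another protein-coding gene's window also held the summits of rpn-3, eef-1A.1, rpn-12, mrps-6, cct-8, rpb-11, ears-2, eef-1G and ubq-2. This was not so at mrpl-55, rpoa-1, eif-3.C, eif-2Bgamma and mars-1. At mrps-6 the sharing gene was rpn-8, itself in the related lists. In the replicate lists the 203 genes had summits in 56.2% and 45.3% of cases, again between the ribosomal protein genes and the rest.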

How the data were processed

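Whole-animal UNC-62 ChIP-seq of 2 biological replicates in 1 group was analysed from the ce11 region lists. Per the deposited file lists, the authors called regions for each replicate and for both together, each with a control, and derived the reproducible list from these by IDR. Which aligner and caller were used is not given in these sources. The deposited signal (column 7) is the authors' enrichment value per region, and the deposited −log10 q value (column 9) is theirs too. Pooled and reproducible signals mix both replicates and have no SD or n. Signals are printed for each list but ordered only within one, and the replicate lists, which are of equal length, were compared by rank. Lists on ce10 were not used, as no gene models of that build were at hand.

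Genes came from Ensembl release 115 (WBcel235, the assembly of ce11) and sequence from RefSeq of the same assembly. Positions are 1-based. The summit sequence of 1 gene is not reported here. A summit matched another within 200 bp. Words in sequence were sought on both strands, within 100 bp of a summit or in the 500 bp before the most upstream start. Shares carry exact 95% binomial intervals, and a count of 0 is read as up to 3 counts. No significance test was made: there is 1 group, and the genes and lists were chosen with earlier results of these data known. In tests on simulated data, 50 of 50 planted summits were found at their distance, and 0 of 100 placed 1 bp outside the window were counted. Named are genes with a reproducible or pooled summit, the best 5 per replicate, the genes nearest the window edges, and up to 2 per related list. Any other gene named was chosen after its values were seen. Tools were scipy 1.17.1 for intervals, numpy 2.4.6 for medians, matplotlib 3.10.9 for plots, and Python 3.11.15.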

Additional observations from a re-analysis of the deposited data

How the results depend on the processing

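Of 63 recomputed values 48 were labelled as the same and 15 as moved, but the first label covered a wide range. For the difference between subunits, reported as 9.10 points, it covered 0.323 to 10.5 points. For the excess over other genes, reported as 14.4 points, it covered 7.39 to 15.1 points. These values all lay within the intervals of the reported differences, -10.8 to 25.9 and 6.66 to 24.6 points. The count of 48 therefore does not show that these differences were stable. No difference between groups of genes, and no median distance, changed sign. Counting a summit only for the gene with the nearest start gave 9 of 81 ribosomal protein genes in the pooled list. That was 11.1% against 3.46% of the others. The same rule gave 30 in replicate 1, 30 in replicate 2, and 3 in the top 1000 of both. Leaving out regions shared with another protein-coding gene gave 5 in the pooled list, or 6.17% against 3.03% of the others. The excess over other genes in that list fell from 14.4 to 3.14 percentage points. The same setting gave 2 in the reproducible list, 26 in replicate 1, 21 in replicate 2 and 2 in the top 1000 of both. The stronger 50% of the pooled list held 8, or 9.88% against 2.32% of the others. The cause of these moves was not tested. With 1 replicate left out at equal list length, the count in place of the pooled one ran from 9 to 14. Narrowing the window to 500 bp before and 100 bp after a start gave 33 in replicate 1. Under the nearest-start, unshared and narrower-window settings, the shares of other genes were computed for the pooled list only. The counts in the other lists therefore do not show whether an excess over other genes held there. The top 5000 regions held 23 in replicate 1 (28.4% against 8.61% of the others) and 14 in replicate 2 (17.3% against 8.14%). The last 3 settings were chosen after seeing the data: the excess over other genes was 15.1 points for autosomal genes and 13.2 points for genes with 1 transcript start, and without the rla- genes the subunits differed by 10.5 points. No paired analysis was possible because there is 1 group. Depth is unknown, and with 31 and 50 genes per subunit only large differences could be seen.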
